A study of Homo sapiens with 6 samples.

Results

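The SOX genes encode transcription factors that bind DNA through a high mobility group (HMG) box related to that of SRY. The members described here by name are SOX2, SOX4, SOX5, SOX6, SOX9, SOX11, SOX12, SOX13 and SOX21, which are 9 of the 62696 genes counted in the series. They were chosen by name from several subgroups of the family, and all 9 had enough reads to be tested. The cells were DMS53, an established human small cell lung cancer (SCLC) cell line. The study asked what enforced expression of ONECUT2 (OC2), a cut homeodomain transcription factor, does to the neuroendocrine state of these cells. Both groups were transduced with lentivirus and selected with puromycin. The 3 control libraries came from cells carrying the empty vector, which encodes monomeric GFP and puromycin resistance, and the 3 OC2-OE libraries from cells carrying a vector for constitutive expression of GFP-tagged OC2. The OC2-OE cells therefore model a sustained high level of a tagged protein in a single cell line. The study describes 3 independent RNA-Seq experiments per condition, but nothing in the sample labels says whether the cells of a group were transduced separately, so the p-values measure the spread between these libraries.

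SOX factors bend DNA and usually act together with a partner factor bound beside them. SOXB1 factors such as SOX2 keep progenitor cells undifferentiated and mark the proximal airway of the developing lung, the SOXB2 factor SOX21 opposes them, SOXC factors (SOX4, SOX11, SOX12) act in neuronal and mesenchymal precursors, SOXD factors (SOX5, SOX6, SOX13) lack an activation domain of their own, and the SOXE factor SOX9 drives cartilage formation and marks the distal tips of the growing lung. In SCLC, SOX2 is known as a lineage factor of neuroendocrine cells. SOX2 is also among the genes that the study itself described as altered in these libraries, so its direction here is not independent evidence.

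Each library held between 16533284 and 19099337 read pairs assigned to genes. ONECUT2 had 465, 412 and 394 counts in controls against 74031, 68853 and 72763 with OC2-OE, in the direction of the labels. All 8 of the 8 fixed neuroendocrine SCLC markers were detected, of which 7 fell and 1 (CHGA) rose, where 28.7% of all tested genes fell and 27.8% rose, and their summed level was 4987 to 5039 CPM (counts scaled to the size of the library) in control and 3281 to 3345 CPM in OC2-OE libraries. The call of CHGB, the smallest change among these markers (log2 fold change -0.14), was lost under library size scaling, with DESeq2 and without control replicate 2, OC2-OE replicate 1 or OC2-OE replicate 3. The study itself had reported SYP, DLL3, INSM1 and NCAM (NCAM1 here) as lowered in these data. The falls of those markers are therefore not independent evidence. Of the markers of other cell types, 2 of the 3 tested fibroblast genes and the 1 tested immune gene (LYZ) rose, again beside 27.8% of all tested genes, with summed levels of 21.2 to 23.9 against 28.1 to 32.1 CPM and of 0.478 to 0.696 against 2.19 to 2.74 CPM; the endothelial genes summed to 2.99 to 3.96 against 2.36 to 3.35 CPM, and CD3E had no counts. Of the 2 tested endothelial genes, CDH5 fell, from 17, 14 and 21 counts to 1 in each OC2-OE library (edgeR adjusted p = 1.4e-09), and PECAM1 did not pass. Their part in the results below was not tested. In bulk RNA, fewer cells expressing a gene and less RNA per cell cannot be told apart.

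The subgroups are visible in the coding sequence of the HMG box, which is why its first 60 bases are shown for each of the 9 genes. The box was set to 237 coding bases (79 residues) in every member and placed by a match to the residues RPMNAF. Of these bases, 90 are alike in all 9. Some of them, within the matched residues, are alike because of how the box was found. In the stretches below, written 5′ to 3′ on the coding strand from GENCODE release 29 transcripts (GRCh38), capitals mark the 32 bases that are alike in all 9 genes.
SOX2, chr3:181712475-181712534, plus strand: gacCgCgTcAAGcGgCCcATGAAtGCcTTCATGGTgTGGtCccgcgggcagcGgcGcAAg
SOX21, chr13:94711975-94712034, minus strand: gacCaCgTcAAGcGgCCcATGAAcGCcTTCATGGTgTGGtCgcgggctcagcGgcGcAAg
SOX4, chr6:21594703-21594762, plus strand: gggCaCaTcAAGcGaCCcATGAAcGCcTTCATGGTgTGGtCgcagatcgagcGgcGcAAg
SOX11, chr2:5692860-5692919, plus strand: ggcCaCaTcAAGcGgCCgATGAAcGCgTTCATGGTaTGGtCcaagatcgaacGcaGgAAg
SOX12, chr20:326036-326095, plus strand: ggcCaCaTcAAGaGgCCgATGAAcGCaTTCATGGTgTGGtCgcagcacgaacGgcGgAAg
SOX5, chr12:23543263-23543322, minus strand: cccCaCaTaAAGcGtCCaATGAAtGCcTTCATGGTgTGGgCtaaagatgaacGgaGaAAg
SOX6, chr11:15989049-15989108, minus strand: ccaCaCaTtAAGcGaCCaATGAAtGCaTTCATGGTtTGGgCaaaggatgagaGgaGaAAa
SOX13, chr1:204123693-204123752, plus strand: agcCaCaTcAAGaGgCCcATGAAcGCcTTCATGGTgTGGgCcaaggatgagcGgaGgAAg
SOX9, chr17:72121698-72121757, plus strand: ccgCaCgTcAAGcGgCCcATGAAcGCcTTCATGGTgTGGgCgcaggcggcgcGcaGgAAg

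The 7 pairs of genes within a subgroup shared 78.9% to 88.6% of box bases and 87.3% to 94.9% of residues. The 29 pairs between subgroups shared 57.0% to 73.0% of bases and 48.1% to 67.1% of residues. The pair with the most shared bases was SOX2 and SOX21 (88.6%), followed by SOX4 and SOX11 (86.9%).

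Of the 9 SOX genes, 8 differed between the groups and 1 did not pass the test. SOX9 rose to a level 6.08 times that of control and SOX12 rose 1.21-fold, whereas SOX2, SOX4, SOX5, SOX6, SOX11 and SOX13 fell. A gene was called at an adjusted p under 0.001, the threshold of the study, in the quasi-likelihood test of edgeR, adjusted by the Benjamini-Hochberg method over all 17307 genes tested. By this rule 8 of 9 members were called (88.9%), beside 56.5% of all tested genes. The 2 members called higher stand beside a background of 27.8% of tested genes called higher, and the 6 called lower beside 28.7% called lower. The libraries of the groups did not overlap for 8 of 9 members, as was true of 73.2% of all tested genes. The median log2 fold change of the 9 genes was -0.78, against 0.007 over all tested genes (quartiles -0.36 and 0.40). The members were chosen with results of these data known, so these shares describe the genes and carry no test.

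**Figure D1:**
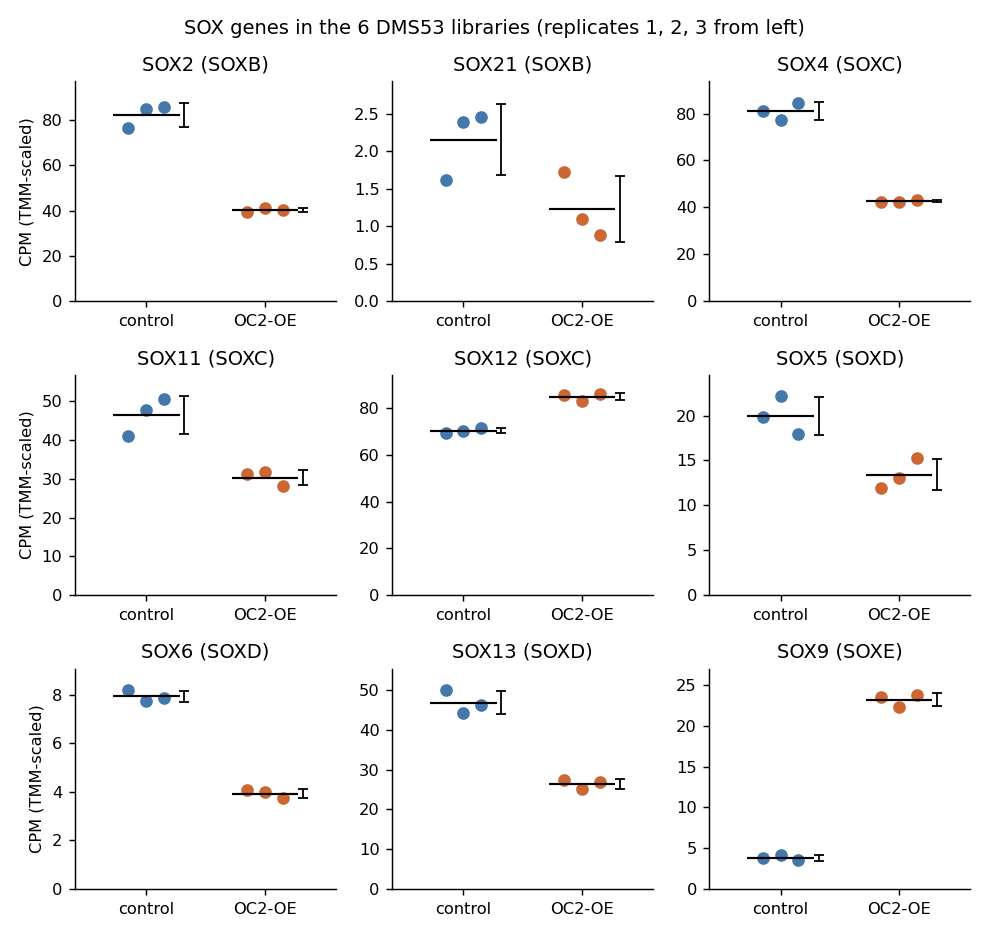
Level of each SOX gene in each library, in CPM scaled by the TMM factors, with 1 panel per gene, points for the 3 control and 3 OC2-OE libraries and bars at the group mean with the SD. The 3 OC2-OE points lie above all control points for SOX9 and SOX12, overlap with them for SOX21, and lie below them for the other 6 genes.

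SOX2 (ENSG00000181449.4, chr3:181711925-181714436, plus strand, GRCh38) is the SOXB1 factor of the group. It was measured at 76.2, 84.7 and 85.8 CPM in control libraries and at 39.5, 41.1 and 40.1 CPM in OC2-OE libraries. The highest OC2-OE library lay well under the lowest control library. The mean went from 82.2 ± 5.23 to 40.3 ± 0.831 CPM (SD, n = 3 each), a 2.04-fold lower level. The log2 fold change was -1.03 (SE 0.046; edgeR adjusted p = 4.03e-42), lower than that of all but 9.26% of tested genes, and it stayed between -1.09 and -1.0 when any single library was left out. Per length, SOX2 stood above 91.8% of tested genes in control cells and above 82.3% in OC2-OE cells, so it remained a well expressed gene.

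SOX21 (ENSG00000125285.6, chr13:94709622-94712545, minus strand), a SOXB2 factor known as a repressor that counteracts SOXB1 factors, was rare. It had 30, 40 and 40 counts in control libraries and 33, 19 and 16 in OC2-OE libraries. The first OC2-OE library lay within the control range, so the groups overlapped. The means were 2.15 ± 0.474 and 1.23 ± 0.438 CPM, and the log2 fold change of -0.78 (SE 0.26) did not pass (edgeR adjusted p = 0.00497). The estimate ranged from -1.10 without OC2-OE replicate 1 (edgeR adjusted p = 0.00103) to -0.58 without OC2-OE replicate 3 (edgeR adjusted p = 0.065).

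SOX21 shares its upstream region with SOX21-AS1, a noncoding gene that starts on the other strand. Their RefSeq start sites (GRCh38.p14) lie at chr13:94712545 and chr13:94712716, and the 170 bases between them (59.4% GC) are shown because these RefSeq transcripts start at its edges. The sequence is written on the plus strand, with a TATAAA in capitals whose first base lies 30 bases before the SOX21-AS1 start. No TATAAA was found on the strand of SOX21. Of 35116 RefSeq promoters, 2.30% hold TATAAA starting 40 to 20 bases before the start site.
SOX21 to SOX21-AS1, chr13:94712546-94712715, plus strand: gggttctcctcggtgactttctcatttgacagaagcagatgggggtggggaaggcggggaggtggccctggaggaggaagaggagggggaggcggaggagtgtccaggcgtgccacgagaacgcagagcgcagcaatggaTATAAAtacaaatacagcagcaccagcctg

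The counts of SOX21-AS1 are those of a wider GENCODE gene (chr13:94703454-94803430, plus strand), which begins beyond the far end of SOX21 and spans it, with no exon base in common, so they are not counts of the divergent transcript alone. SOX21-AS1 had 31, 42 and 43 counts in control and 23, 12 and 12 in OC2-OE libraries, with no overlap. It fell by 1.38 on the log2 scale (SE 0.28; edgeR adjusted p = 4.67e-06). The counting used strand, so reads of SOX21 and SOX21-AS1 were assigned separately. Whether the changes of these genes differ was not tested.

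Among the SOXC genes, SOX4 (ENSG00000124766.7, chr6:21593751-21598619, plus strand), which acts in neuronal precursors and in epithelial-mesenchymal transition, was at 81.2, 77.3 and 84.7 CPM in control and at 42.4, 42.3 and 43.2 CPM in OC2-OE libraries. The groups were far apart and the OC2-OE libraries nearly alike. SOX4 fell from 81.1 ± 3.70 to 42.6 ± 0.484 CPM, with a log2 fold change of -0.93 (SE 0.045; edgeR adjusted p = 2.97e-39). Its exons overlap an antisense gene over 168 bases. CASC15, a long noncoding RNA gene in the neighbourhood of SOX4, fell from 3.79 ± 0.38 to 2.24 ± 0.38 CPM with a log2 fold change of -0.76 (SE 0.19; edgeR adjusted p = 0.000197). That call of CASC15 was lost without control replicate 2 (edgeR adjusted p = 0.00324), without OC2-OE replicate 1 (0.00531) or without OC2-OE replicate 2 (0.0011), and with the DESeq2 Wald test (0.00355).

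SOX11 (ENSG00000176887.7, chr2:5692384-5701385, plus strand), a factor of immature neurons, stood at 41.1, 47.9 and 50.7 CPM in control libraries and at 31.2, 31.7 and 28.2 CPM in OC2-OE libraries. All OC2-OE libraries were below all control libraries, though the gap was smaller than for SOX4. The log2 fold change was -0.61 (SE 0.059; edgeR adjusted p = 3.78e-15), from 46.6 ± 4.94 to 30.4 ± 1.89 CPM.

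SOX12 (ENSG00000177732.9, chr20:325552-330224, plus strand), the weakest activator of the SOXC subgroup, was the exception within it. It was measured at 69.4, 70.2 and 71.5 CPM in control and at 85.8, 83.3 and 86.0 CPM in OC2-OE libraries. The spread within each group was small and the groups did not overlap. SOX12 rose from 70.3 ± 1.05 to 85.1 ± 1.5 CPM, a log2 fold change of 0.28 (SE 0.040; edgeR adjusted p = 9.04e-10) that ranged from 0.26 to 0.33 over the alternatives. The change is small in size, since the quartiles of the absolute log2 fold change among all called genes were 0.34 and 1.16. With SOX4 falling and SOX12 rising, the ratio of SOX4 to SOX12 per length went from 1.12, 1.06 and 1.14 in control to 0.474, 0.487 and 0.482 in OC2-OE libraries. SOX4 thus exceeded SOX12 in every control library and was exceeded by it in every OC2-OE library.

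All 3 SOXD genes fell. SOX5 (ENSG00000134532.20, chr12:23529504-24562544, minus strand), which works with SOX9 in chondrocytes and acts in cortical neurons, had 19.8, 22.2 and 18 CPM in control and 11.9, 13 and 15.3 CPM in OC2-OE libraries. The highest OC2-OE and lowest control library were close but did not overlap. The log2 fold change was -0.58 (SE 0.084; edgeR adjusted p = 1.57e-09) and ranged from -0.68 to -0.49 when 1 library was left out.

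SOX6 (ENSG00000110693.19, chr11:15966449-16739591, minus strand), the partner of SOX5 in chondrocytes and a factor of oligodendrocyte precursors, muscle and erythroid cells, was at 8.19, 7.77 and 7.87 CPM in control and at 4.07, 3.98 and 3.73 CPM in OC2-OE libraries. Both groups were tight, at 7.94 ± 0.219 and 3.93 ± 0.175 CPM. SOX6 fell by 1.02 on the log2 scale (SE 0.13; edgeR adjusted p = 2.81e-11), close to the log2 fold change of SOX2 although its level was far lower.

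SOX13 (ENSG00000143842.15, chr1:204073115-204127743, plus strand), known for its part in gamma-delta T cell fate, was the most abundant SOXD gene. It was measured at 50.0, 44.3 and 46.1 CPM in control and at 27.4, 25 and 26.9 CPM in OC2-OE libraries. The groups were well separated, and SOX13 fell from 46.8 ± 2.92 to 26.4 ± 1.28 CPM with a log2 fold change of -0.82 (SE 0.057; edgeR adjusted p = 1.02e-26).

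SOX9 (ENSG00000125398.8, chr17:72121020-72126416, plus strand), the single SOXE gene of the group, showed the largest change of the 9. It was at 3.75, 4.18 and 3.51 CPM in control and at 23.5, 22.3 and 23.8 CPM in OC2-OE libraries. Every OC2-OE library held several times the level of every control library. SOX9 rose from 3.81 ± 0.344 to 23.2 ± 0.812 CPM, with 197 counts in all control libraries together and 1270 in the OC2-OE libraries. The log2 fold change of 2.60 (SE 0.10; edgeR adjusted p = 1.7e-47) exceeded that of 98.6% of tested genes and lay between 2.55 and 2.67 over the alternatives. Per length, SOX9 moved from above 25.6% to above 60.4% of tested genes.

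The noncoding gene SOX9-AS1 was counted over a GENCODE gene on the minus strand (chr17:72067099-72237203) that spans SOX9 with no exon base in common; the RefSeq transcript starts at chr17:72116016, with 5003 bases between it and the SOX9 start. SOX9-AS1 had 29, 25 and 12 counts in control and 74, 84 and 86 in OC2-OE libraries. It rose by a log2 fold change of 1.80 (SE 0.21; edgeR adjusted p = 2.04e-13). Of the other noncoding genes at SOX loci, SOX2-OT, within which SOX2 lies, had 19, 15 and 21 against 14, 14 and 6 counts and did not pass (log2 fold change -0.77, SE 0.35, edgeR adjusted p = 0.0428). SOX5-AS1 was too rare to test, with 4 counts in all control and 8 in all OC2-OE libraries, and SOX1-OT had no counts. In sum 4 of these 6 genes were tested, 1 rose (SOX9-AS1) and 2 fell (SOX21-AS1 and CASC15), beside 27.8% of all tested genes called higher and 28.7% called lower.

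**Figure D2:**
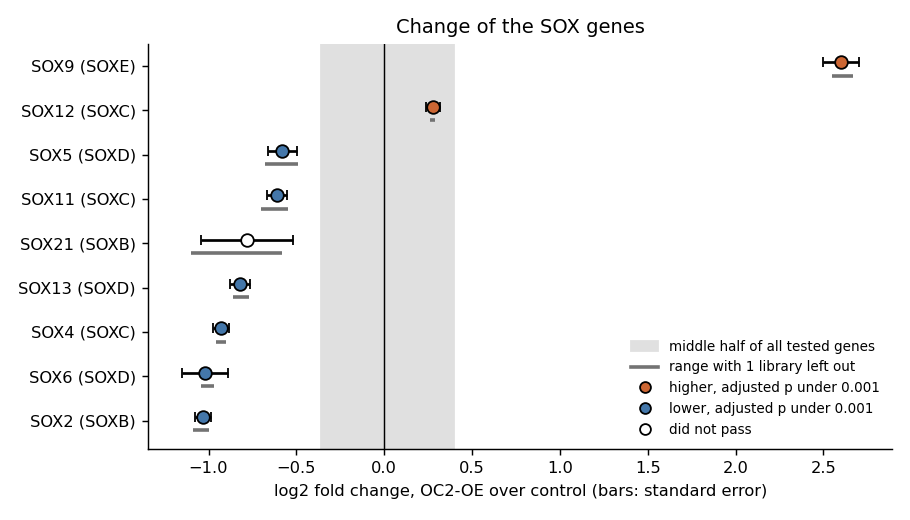
Log2 fold change of each SOX gene, OC2-OE over control, with bars of 1 SE from the edgeR fit and the values obtained by leaving out each library in turn. SOX9 stands at 2.60 and SOX12 at 0.28, the other 7 genes lie between -1.03 and -0.58, and SOX21 has the widest bar.

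Levels were compared between genes per length, as CPM divided by the exon length in kilobases (RPKM). In control cells the order was SOX2 (32.7 ± 2.08), SOX4 (16.7 ± 0.761), SOX12 (15.1 ± 0.225), SOX13 (6.31 ± 0.394), SOX11 (5.17 ± 0.549), SOX5 (1.77 ± 0.19), SOX9 (0.970 ± 0.0874), SOX21 (0.736 ± 0.162) and SOX6 (0.395 ± 0.0109 RPKM), and the libraries of no neighbouring genes overlapped. In OC2-OE cells it was SOX12 (18.2 ± 0.32), SOX2 (16 ± 0.331), SOX4 (8.76 ± 0.0994), SOX9 (5.90 ± 0.206), SOX13 (3.56 ± 0.173), SOX11 (3.37 ± 0.21), SOX5 (1.19 ± 0.151), SOX21 (0.421 ± 0.15) and SOX6 (0.196 ± 0.00873 RPKM). Here SOX13 and SOX11 overlapped and no other neighbours did. SOX12 thus replaced SOX2 at the head of the order, and SOX9 passed SOX13, SOX11 and SOX5. The place of SOX9 above SOX13 and SOX11 holds per length only, since its exons span 3931 bases against 7420 and 9002, and in CPM it stayed below both in OC2-OE cells (23.2 against 26.4 and 30.4). Other places also depend on length: in CPM, SOX2 and SOX4 overlapped in control cells, as did SOX11 and SOX13. In OC2-OE cells SOX4 lay above SOX2 in every library and SOX11 above SOX13. The last place of SOX6 holds per length only. In CPM it stood above SOX9 and SOX21 in control cells (7.94 against 3.81 and 2.15) and above SOX21 in OC2-OE cells (3.93 against 1.23). The length is that of all annotated exons of a gene joined, 20093 bases for SOX6 and 11289 for SOX5, which lowers the RPKM of genes with many alternative exons.

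The 9 genes together summed to 76.8, 80.2 and 82.4 RPKM in control libraries and to 57.8, 57.2 and 57.9 RPKM in OC2-OE libraries, so the combined level was lower in every OC2-OE library. The SOXB genes went from 33.5 ± 2.25 to 16.4 ± 0.268 RPKM, the SOXC genes from 36.9 ± 1.26 to 30.3 ± 0.257, the SOXD genes from 8.48 ± 0.379 to 4.95 ± 0.224, and SOX9 from 0.970 to 5.90. As a share of the sum, SOX2 went from 41.0% ± 1.34 to 27.8% ± 0.741. SOX4 went from 20.9% ± 0.967 to 15.2% ± 0.12. The share of SOX12 was 18.9% ± 0.397 in control and 31.6% ± 0.349 in OC2-OE libraries, and that of SOX9 was 1.22% ± 0.125 and 10.2% ± 0.291. The shares of SOX6 and SOX13 were also lower in every OC2-OE library, whereas those of SOX5, SOX11 and SOX21 overlapped between the groups. The ratio of SOX2 to SOX9 in RPKM was 31.8, 31.7 and 38.3 in control and 2.63, 2.89 and 2.64 in OC2-OE libraries, so SOX2 stayed above SOX9 throughout. As shares of the summed counts, with length left out, SOX2 went from 22.8% to 15.1%, SOX4 from 22.5% to 16%, SOX12 from 19.5% to 31.9% and SOX9 from 1.06% to 8.70%, while SOX13 went from 13% to 9.92% and SOX11 from 12.9% to 11.4%.

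**Figure D3:**
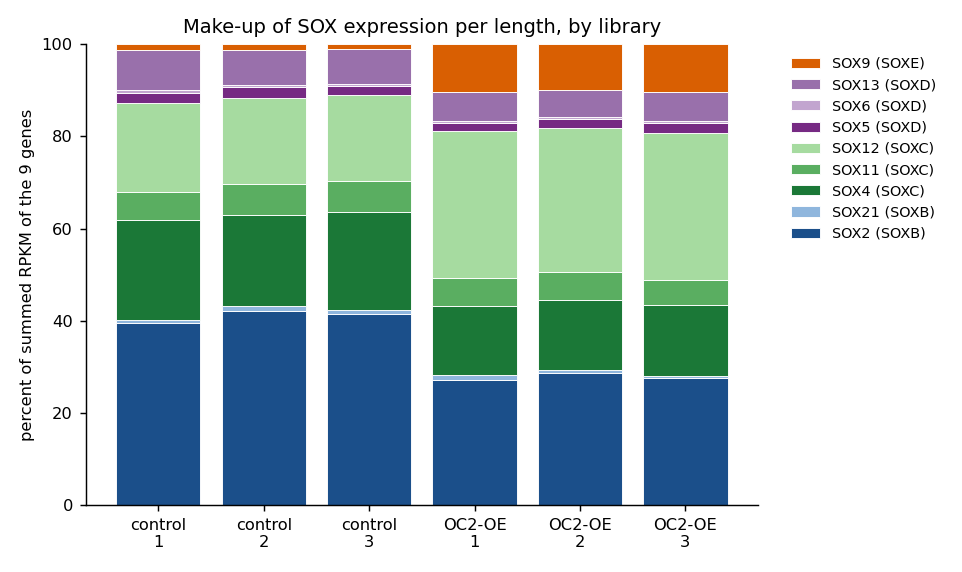
Share of the summed RPKM of the 9 SOX genes taken by each gene in each of the 6 libraries, stacked to 100%. The share of SOX2 is 39.5% to 42.1% in control and 27.2% to 28.6% in OC2-OE libraries, that of SOX12 goes from at most 19.3% to at least 31.2%, and that of SOX9 from at most 1.33% to at least 9.91%.

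The start-site windows of the members were searched for the core of the ONECUT motif. The search covered 11 RefSeq windows (GRCh38.p14), from 250 bases before to 50 after a start, of 7 of the 9 genes; those of SOX9 and SOX11 were not analysed here. ATCAAT, on either strand, was found in 1 of the 11, at an alternative start of SOX6 (chr11:16408807-16409106), and in 6.26% of all 35116 windows. ATCGAT was found in none of the 11 and in 0.763% of all windows. A match is a run of letters and not a site of binding.

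A further 10 SOX genes were looked up, of which 3 had enough counts to test. SOX17, an endoderm and endothelial factor, had 74, 44 and 72 counts in control and 12, 20 and 21 in OC2-OE libraries, and fell by 1.91 on the log2 scale (SE 0.24; edgeR adjusted p = 4.21e-12). SOX3, the neural SOXB1 paralog of SOX2, had 15, 12 and 14 against 0, 2 and 3 counts and fell by 3.02 (SE 0.57; edgeR adjusted p = 1.5e-06); the log2 fold change was -2.43 without OC2-OE replicate 1 and -3.69 without OC2-OE replicate 3. SOX14, a SOXB2 factor like SOX21, had 25, 17 and 14 against 15, 10 and 25 counts (log2 fold change -0.24, edgeR adjusted p = 0.509). SOX7, SOX8, SOX15, SOX18 and SOX30 had at most 11 counts in any library, and SOX1 and SOX10 had 0 in all 6.

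Genes that work beside the SOX factors or downstream of them were read from lists, whose medians stand beside the 0.007 of all tested genes and whose counts stand beside the 56.5% of all tested genes called, 27.8% higher and 28.7% lower. Of 10 SOXB partner factors, 4 were tested and 3 fell (28.7% of all tested genes fell), with a median log2 fold change of -0.60. These were the POU factor POU3F2 (log2 fold change -1.43), the chromatin remodeller CHD7 (-0.80), which binds SOX2, and POU2F1 (-0.40). Of 12 neural progenitor genes, 8 were tested, 2 rose and 5 fell (median -0.67). With at least 10 counts required in every library, LIN28A, MSI1 and VIM were not tested, and 4 genes were called in place of 7. The RNA-binding factor LIN28A had 27, 23 and 28 against 3, 3 and 9 counts, a log2 fold change of -2.43 that was -3.14 without OC2-OE replicate 3. PROM1, which encodes the surface protein CD133, fell from 429 ± 12.1 to 138 ± 1.91 CPM. MSI1 rose from 12, 5 and 6 to 26, 18 and 23 counts (edgeR adjusted p = 0.000246), and its call was lost without control replicate 2 (0.00549) or 3 (0.00296), without OC2-OE replicate 1 (0.00303) or 3 (0.00183), and with DESeq2 (0.00492). The other gene of this list that rose, the intermediate filament gene VIM, had 12, 14 and 7 against 30, 34 and 25 counts (edgeR adjusted p = 9.2e-05), and its call was lost without control replicate 3 (0.00247), without OC2-OE replicate 2 (0.00244) and with DESeq2 (0.00217).

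All 6 listed SOXC targets were tested, 3 rose and 2 fell, with a median of 1.01. With at least 10 counts required in every library, DCX and TEAD2 were not tested, and 3 genes were called in place of 5. The median of 1.01 includes both of these genes, which had few counts in control libraries. The microtubule protein gene DCX had 1, 9 and 2 control counts against 46, 49 and 45, a log2 fold change of 3.42 (SE 0.37; edgeR adjusted p = 5.8e-15) that was 4.79 without control replicate 2. SEMA3C, a guidance ligand, rose from 2.10 ± 0.308 to 10.6 ± 1.85 CPM, and TEAD2, a Hippo pathway factor, from 6, 5 and 6 counts to 20 in each OC2-OE library; the call of TEAD2 was lost with DESeq2 (adjusted p = 0.00204). EZH2 and MAP2 fell, and TUBB3 did not pass (edgeR adjusted p = 0.00538), though it did without control replicate 3 (0.000383). The list thus went both ways while SOX4 and SOX11 fell and SOX12 rose.

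Of 12 cartilage and matrix genes known to depend on SOX9 with SOX5 and SOX6, 7 were tested, none rose and 2 fell (median -0.31). COL2A1, the type II collagen gene, had 327, 285 and 313 counts in control and 45, 25 and 38 in OC2-OE libraries, a log2 fold change of -3.18 (SE 0.13; edgeR adjusted p = 2.2e-46). COL2A1 was lower in the libraries in which SOX9 was higher and SOX5 and SOX6 were lower. A link between these changes was not tested. COMP, a cartilage matrix protein gene, fell from 1.96 ± 0.34 to 0.918 ± 0.237 CPM (edgeR adjusted p = 0.000313), a call that did not hold without control replicate 3, OC2-OE replicate 1 or OC2-OE replicate 2, or with DESeq2. COL9A3 did not pass (log2 fold change 0.58, edgeR adjusted p = 0.00996) but did without control replicate 2 (0.000993), and ACAN had no counts.

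Of 16 lung epithelial genes, 12 were tested, 3 rose and 6 fell (median -0.35). NKX2-1, the lung and thyroid lineage factor, fell from 144 ± 6.93 to 31.6 ± 1.13 CPM, and FOXA2 from 160 ± 8.91 to 84.9 ± 5.58 CPM. FGFR2, a receptor of distal tip cells in the developing lung, rose from 1.30 ± 0.32 to 5.26 ± 0.324 CPM (log2 fold change 2.0, SE 0.20, edgeR adjusted p = 4.21e-17). FOXP1 (log2 fold change 0.87, edgeR adjusted p = 3.2e-21) and FOXP2 (0.33, edgeR adjusted p = 1.69e-07) also rose. ID2 fell by 0.64 on the log2 scale (edgeR adjusted p = 8.55e-39) and ETV4 by 0.69 (edgeR adjusted p = 2.07e-25). FOXP4 (-0.64) and FOXA1 (-0.35) fell as well. ETV5 (-0.18, edgeR adjusted p = 0.00642), GATA6 (-0.35, edgeR adjusted p = 0.0129) and BMP4 (0.01, edgeR adjusted p = 0.932) did not pass. SFTPC, which marks alveolar cells, had no counts. Over the 7 lists, 44 of 71 distinct genes were tested and 31 were called, beside 56.5% of all tested genes.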

How the data were processed

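Stranded poly(A) RNA-Seq was made from 3 control and 3 OC2-OE libraries. The authors deposited raw counts of read pairs per gene, 1 file per library, made with STAR 2.7.9a and featureCounts 1.6.0 on GENCODE release 42 (GRCh38), per the submitters' processing notes and the file headers. A gene's exons were joined and strand was used. Symbols were found for 62625 of 62696 genes. Here, genes passing filterByExpr were fitted with edgeR 4.0.16 (R 4.3.3; TMM scaling, robust quasi-likelihood test, all 6 libraries, no covariate), and p-values were adjusted over all 17307 tested genes by the Benjamini-Hochberg method, with a threshold of 0.001. The SE of a log2 fold change was taken from the F statistic. CPM are scaled by TMM, and RPKM also by exon length. The script was tested on simulated data with far fewer changed genes than were called here. That test therefore does not cover scaling when most genes change. The members and lists were chosen with earlier results of these data known. Named genes were the members, all other SOX and noncoding SOX-locus genes, and the 3 called genes with the largest change on each other list. Further genes were added after their values were seen (COL9A3, TUBB3, EZH2, MAP2, ACAN, SFTPC, ID2, ETV4, ETV5, FOXP1, FOXP2, FOXP4, FOXA1, GATA6, BMP4, VIM, CHGA, CHGB, LYZ, CD3E, CDH5, PECAM1). Same-numbered libraries did not deviate together (correlations -0.00331, 0.0205 and 0.0146). Alternatives were DESeq2 1.42.0 (size factors and Wald test), limma 3.58.1 voom, library size scaling, no filter, a floor of 10 counts per library, removal of ONECUT2, a replicate block, omission of each library and an adjusted p under 0.05.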

Additional observations from a re-analysis of the deposited data

How the results depend on the processing

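The 8 calls among the SOX genes were made under every alternative in which the threshold stayed at 0.001, and no log2 fold change of a member changed sign under any of the 15 alternatives. At an adjusted p under 0.05, SOX21 passed too, giving 9 members, 37 genes of the lists and 12354 of all genes. With 1 library omitted at a time there were 8944 to 9340 called genes in place of 9776 and 28 to 31 called list genes in place of 31. The DESeq2 Wald test called 8385 genes and 26 list genes. A minimum of 10 counts in every library gave 8995 and 25. With the replicate number as a block, 9642 genes, 31 list genes and the 8 members were called; since the same-numbered libraries share only a number, that fit is no paired analysis of matched cultures. Counts limit what can be said of SOX21, SOX3, SOX14, SOX17 and the noncoding genes, which had under 100 counts in each library.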
